A study of Mus musculus with 2 samples.

Results

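Acta2 encodes α smooth muscle actin (αSMA), the actin of the contractile filament of vascular smooth muscle, and its promoter drives the Cre recombinase that labels the cells studied here. The expression of Acta2 and of 6 other smooth muscle contractile genes (Tagln, Myl9, Myh11, Tpm2, Cald1 and Cnn1) was followed in single αSMA-labeled periosteal cells. The 7 genes were taken by name from the 16150 genes with a unique molecular identifier (UMI, a tag that counts an mRNA molecule) in the wells used. All 7 genes were in the count tables, and 6 of them had at least 20 UMIs and could be tested. Cnn1, which encodes calponin, had 2 UMIs in the wells used and is given by its counts.

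In αSMACreER mice, Cre is tethered to a tamoxifen-responsive receptor and made under an Acta2 promoter transgene. Tamoxifen switches on the Ai9 reporter, so that Tomato marks cells in which this promoter was active at the time of tamoxifen, together with their descendants, whether or not they still express Acta2. Single Tomato+ cells were sorted from the periosteum of female mice into wells, 1 pool of mice per time point. The 2-day pool (chase 2 days, age 10.3 weeks) and the 6-week pool (chase 43 days, age 14.4 weeks) came from aSMACreER/Ai9/Col2.3GFP mice. The 13-week pool (chase 96 days, age 20.1 weeks) came from aSMACreER/Ai9/R26-M2rtTA/TetOP-H2B-GFP mice, which also received doxycycline for 5 weeks, starting on postnatal day 11 in the labels. All mice received 2 doses of 75 mg/kg tamoxifen. Cells of the 2-day and 13-week pools shared a plate and the 6-week cells were on another, so that chase time, age and, at 13 weeks, strain and doxycycline cannot be told apart, and the 6-week pool cannot be told apart from its plate.

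Of 600 wells assigned to a pool, 503 had at least 200 genes and were used (181, 189 and 133 at 2 days, 6 weeks and 13 weeks). They held 171209, 156763 and 117824 UMIs, with 246 to 3928 UMIs per well and a median of 727. At this depth a gene without a UMI in a well is not shown to be absent. The wells carried markers of stromal cells, with 186 UMIs per 10000 of a fibroblast and progenitor list and 30.6 of a pericyte list. Other cell types were present as well, since 19 wells had 5 or more UMIs of a list of 12 skeletal muscle fibre genes and 96 wells had a UMI of a list of 11 endothelial genes.

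The smooth muscle contractile apparatus slides actin filaments along myosin. Acta2 and the heavy chain Myh11 form the actin and myosin filaments, Myl9 is the regulatory light chain whose phosphorylation starts contraction, and Tpm2 (β tropomyosin), Cald1 (caldesmon) and Cnn1 bind actin and tune its access to myosin. Tagln (SM22α) is an actin-associated protein used as an early smooth muscle marker, whereas Myh11 is regarded as the marker most restricted to mature smooth muscle. Cald1 and Tpm2 are less restricted, as non-muscle cells make forms of caldesmon and skeletal muscle fibres make β tropomyosin. Many of these genes are switched on by serum response factor with its partners myocardin and the MRTF proteins, through a DNA element called the CArG box.

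The CArG boxes of the Acta2 and Myl9 promoters are shown because the question asked of the cells is whether the other genes follow Acta2. The box was searched, by its name, as CC, 6 bases of A or T, and GG (strict) or with 1 G or C among the 6 bases, in the 250 bases before each start site in RefSeq (GRCm38.p6). It reads as the same motif on both strands, so that both strands give the same matches. RefSeq windows were at hand for 5 of the 7 genes. Each line gives 30 bases with the box in capitals, in the direction of the gene. All lie before the RefSeq start, and those of Acta2 are inside the first exon of a longer GENCODE transcript.
Acta2, box 84 bases before the start, 1 G or C, chr19:34255438-34255467, minus strand: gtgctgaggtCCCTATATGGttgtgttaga
Acta2, box 34 bases before the start, 1 G or C, chr19:34255388-34255417, minus strand: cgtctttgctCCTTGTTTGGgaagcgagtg
Myl9, box 161 bases before the start, strict, chr2:156775293-156775322, plus strand: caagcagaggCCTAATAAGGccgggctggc
Myl9, box 99 bases before the start, 1 G or C, chr2:156775355-156775384, plus strand: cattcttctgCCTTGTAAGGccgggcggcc

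Acta2 and Myl9 thus each held a pair of such boxes. Of 32851 promoter windows, 1.47% held a strict box, 7.25% a box with 1 G or C, 8.59% either kind and 0.670% 2 or more. The windows of Tpm2, Cald1 and Cnn1 held none of these letters, which says nothing of elements elsewhere in those genes. Tagln and Myh11 are named only.

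The genes lie apart in the genome. In the GENCODE annotation of GRCm38, Acta2 is at chr19:34241090-34255590 and Myh11 at chr16:14194535-14291372, both on the minus strand. Tagln (chr9:45929619-45936058, minus strand) and Cnn1 (chr9:22099216-22109630, plus strand) share a chromosome. Tpm2 is at chr4:43514711-43523765 on the minus strand, and Myl9 at chr2:156775420-156781658 and Cald1 at chr6:34598500-34775473 are on the plus strand. Tagln overlaps Pcsk7 and Cald1 overlaps Gm13861 on the opposite strand. Those neighbors had 5 and 8 UMIs in the wells used, against 81 for Tagln and 204 for Cald1.

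Few wells held several Acta2 UMIs, and these carried a large part of the Acta2 mRNA counted. Acta2 had 253 UMIs in 107 of 503 wells, 21.3% (95% Clopper-Pearson interval 17.8 to 25.1). Of these wells, 70 held 1 UMI, 37 held 2 or more, and 11 held 5 or more. The 11 wells were 10.3% of the wells with Acta2 and held 117 UMIs, 46.2% of the Acta2 molecules. Intervals here and below cover counting error only.

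The other genes ranged from more scattered than Acta2 (Cald1) to more concentrated (Myh11). Cald1 was the most scattered, with 204 UMIs in 137 wells and at most 7 in a well, and 14.2% of its UMIs fell in the 11 wells with 5 or more Acta2 UMIs. Myl9 had 192 UMIs in 110 wells and 29.2% of them in those wells. Tagln had 81 UMIs in 49 wells and 43.2% of them there, and Myh11 had 87 UMIs in 33 wells and 56.3% of them there. Tpm2 had 188 UMIs in 72 wells, with 27.1% in the 11 wells and 38.8% (73 UMIs) in the 19 muscle fibre wells, and 0 to 3.95% of the UMIs of Acta2, Tagln, Myl9, Myh11 and Cald1 were in fibre wells. Both Cnn1 UMIs fell among the 11 wells, in 1 well of the 6-week and 1 of the 13-week pool.

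The 11 wells with 5 or more Acta2 UMIs were not of a single kind. In the richest well, from the 13-week pool, 28 Acta2, 20 Myl9, 13 Myh11, 11 Tagln, 11 Tpm2, 3 Cald1 and 1 Cnn1 UMIs were counted, with 0 of Rgs5, a marker of pericytes. The next, from the 6-week pool, held 20 Acta2, 22 Myh11, 7 each of Tagln, Myl9, Tpm2 and Cald1, 1 Cnn1 and again 0 Rgs5 UMIs. In both wells all 7 genes were seen together.

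The next 2 wells in order, both from the 2-day pool, were different. They held 15 and 11 Acta2 UMIs but 0 Myh11, with 1 and 3 Tagln UMIs, and 0 Rgs5. Matrix genes were abundant in both, with 55 and 66 UMIs of Col1a1 (a collagen I chain), 39 and 91 of Col3a1 (collagen III) and 25 and 17 of Postn (periostin). These matrix genes were named after their values were seen. Among the other 7 wells, 5 held Myh11 (1 to 6 UMIs) and 4 of those 5 had Rgs5, with 72 Rgs5 UMIs in 1 well of the 6-week pool. In all, 7 of the 11 wells had Myh11, 4 of them in the 6-week and 3 in the 13-week pool, and the 4 wells without it came from the 2-day and 13-week pools, 2 from each. Of the 2 such wells at 13 weeks, 1 held 5 Acta2 UMIs, 0 of the other 6 genes and 2 UMIs of Pax7, a satellite cell gene. The other was a muscle fibre well with 5 fibre UMIs, which held 5 Acta2 UMIs and, of the other 6 genes, only 2 Tpm2 UMIs.

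**Figure D1:**
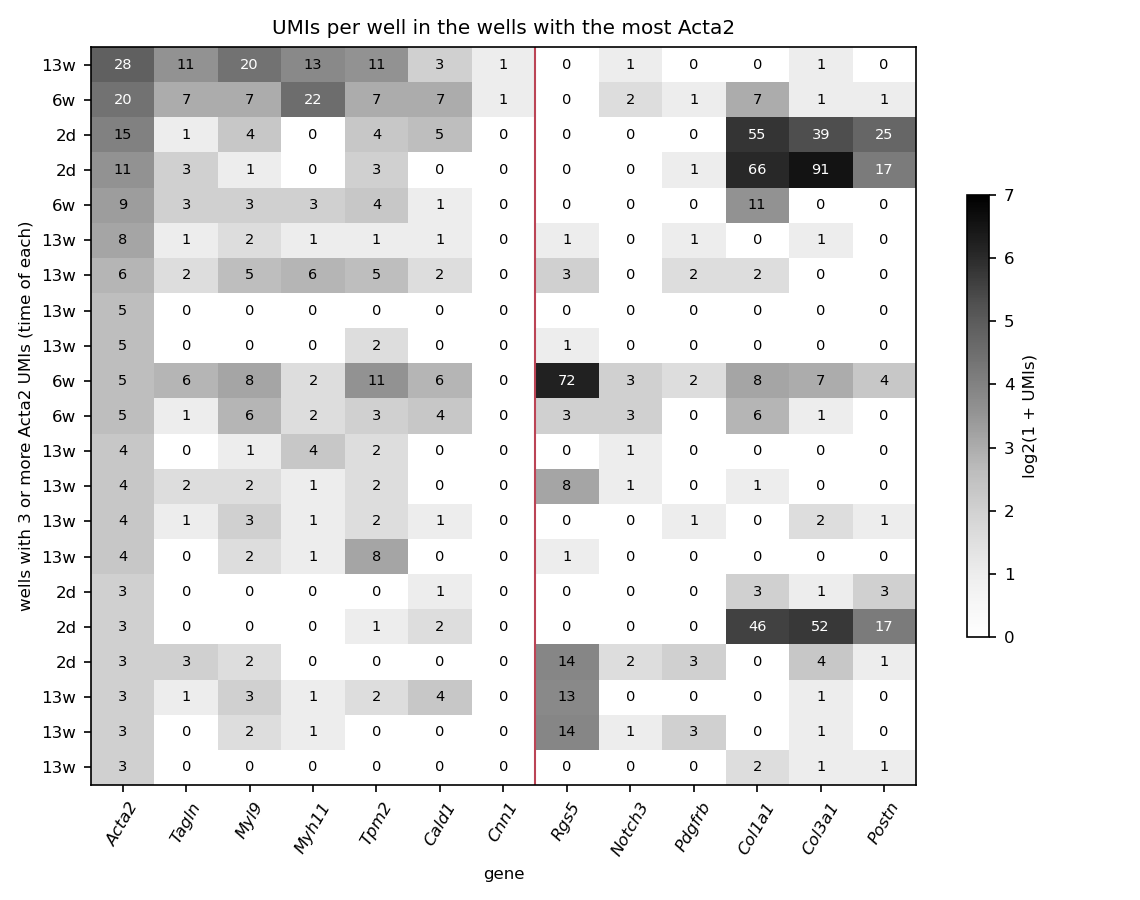
UMIs of the 7 contractile genes (left of the line) and of 6 pericyte and matrix genes (right of the line) in the 21 wells with 3 or more Acta2 UMIs. Each row is a well named by its time point, the number is the UMI count and the shade is log2(1 + UMIs). The 13-week and 6-week wells at the top hold all 7 genes, and both 2-day wells below them hold 55 and 66 Col1a1 UMIs and no Myh11.

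Whether cells with a pericyte marker kept Acta2 was asked by comparing wells with a UMI of Rgs5 (118 wells; 35, 45 and 38 per pool) with the 385 wells without. Levels are UMIs per 10000 UMIs summed over the wells of a class, so that fewer expressing cells and fewer molecules per cell cannot be told apart. The Acta2 level in Rgs5+ wells was 8.21, 6.27 and 13.5 at 2 days, 6 weeks and 13 weeks, against 3.88, 3.83 and 7.44 in wells without Rgs5. It was higher in Rgs5+ wells in 3 of 3 pools, by 2.12-fold (1.2 to 3.57), 1.64-fold (0.948 to 2.76) and 1.82-fold (1.2 to 2.71), and the 6-week interval included no difference. With UMIs summed per pool and class, the log2 fold change was 0.79 ± 0.28 (SE, 3 pools) and did not pass the test (edgeR quasi-likelihood test, Benjamini-Hochberg adjusted p = 0.077).

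Most Acta2 molecules were nevertheless outside Rgs5+ wells. Those wells held 34.0% of the Acta2 UMIs and 20.8% of all UMIs, and 43 of the 107 wells with Acta2. Wells without Rgs5 and with fewer than 3 tendon UMIs (211 wells) held 48.6% of the Acta2 UMIs and 43.1% of all UMIs. Within them, 118 wells had fewer than 5 fibre UMIs and no satellite cell or endothelial UMI, and these held 92 Acta2 UMIs, a level of 8.004 (6.45 to 9.82). These UMIs were in 20 of the 118 wells, and single wells held 28, 20, 15 and 9 of them. The level therefore rests on few wells and does not describe the class. Of the 11 richest wells, 6 had no Rgs5 and held 88 Acta2 UMIs, and 5 were Rgs5+ and held 29.

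Myl9 and Tagln rose in Rgs5+ wells, and the 2 calls differed in how they held. Myl9 kept its call in 18 of 20 alternatives and Tagln in 7 of 20, although Tagln stayed higher in all 20 (0.80 to 2.25). The Myl9 level was 9.85, 10.4 and 8.17 in Rgs5+ wells and 2.04, 2.33 and 5.35 in the others (log2 fold change 1.56 ± 0.30, edgeR adjusted p = 3.4e-05). Every Rgs5+ value lay above every other value. The Tagln level was 5.34, 3.55 and 2.20 in Rgs5+ wells and 0.953, 0.916 and 2.67 in the others (1.29 ± 0.43, edgeR adjusted p = 0.044). Here the 13-week pool went the other way, with a ratio of 0.823 (0.298 to 1.98), and the classes overlapped. Of 3794 genes tested, 3.06% were higher and 3.93% lower in Rgs5+ wells, and 2 of the 6 contractile genes tested were higher and 0 lower.

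The other 3 genes did not pass. Cald1 was at 6.57, 7.64 and 7.54 in Rgs5+ wells and 3.47, 4.66 and 3.37 in the others, with no overlap (0.83 ± 0.29, edgeR adjusted p = 0.074). Myh11 was at 2.87, 1.36 and 5.66 in Rgs5+ wells and 0.136, 2.17 and 3.37 in the others (0.78 ± 0.45, edgeR adjusted p = 0.40). Its ratio ran from 21.1 at 2 days, on 7 against 2 UMIs, to 0.630 at 6 weeks and 1.68 at 13 weeks. Tpm2 was at 3.28, 5.18 and 6.91 in Rgs5+ wells and 2.18, 6.00 and 4.07 in the others, with overlapping classes (0.26 ± 0.33, edgeR adjusted p = 0.80).

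The Tpm2 value turned on muscle fibre wells. Without the 19 fibre wells Tpm2 was higher in Rgs5+ wells by 1.18 on the log2 scale (edgeR adjusted p = 0.033), with a level of 1.98 in wells without Rgs5 in place of 3.94. The comparison was also run without the 11 wells richest in Acta2, an alternative chosen after seeing the data. Those wells held 38 of the 57 Myh11 UMIs and 25 of the 48 Tagln UMIs of wells without Rgs5, against 11 of 30 and 10 of 33 in Rgs5+ wells. Leaving them out therefore raises the Myh11 and Tagln ratios by construction, whereas the Tpm2 change moved the other way. Nothing is read from the calls made without these wells.

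Endothelial RNA moved with the Rgs5 class. All 6 endothelial genes tested, of 11 listed, were higher in Rgs5+ wells, beside 3.06% of all genes. The list summed to 19.7, 33.8 and 42.1 UMIs per 10000 there, against 0.409, 2.17 and 5.47 in the others. Of 118 Rgs5+ wells, 60 had an endothelial UMI. Acta2 was at 7.56 in those 60 and at 12.0 in the other 58, and Myl9 was at 9.14 and 10.01. After leaving out every well with an endothelial UMI, edgeR called 0 contractile genes, 3 were at an unadjusted p under 0.05, and Myl9 was at 1.33 (adjusted p = 0.064). The part of endothelial RNA in the differences was not tested beyond this.

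**Figure D2:**
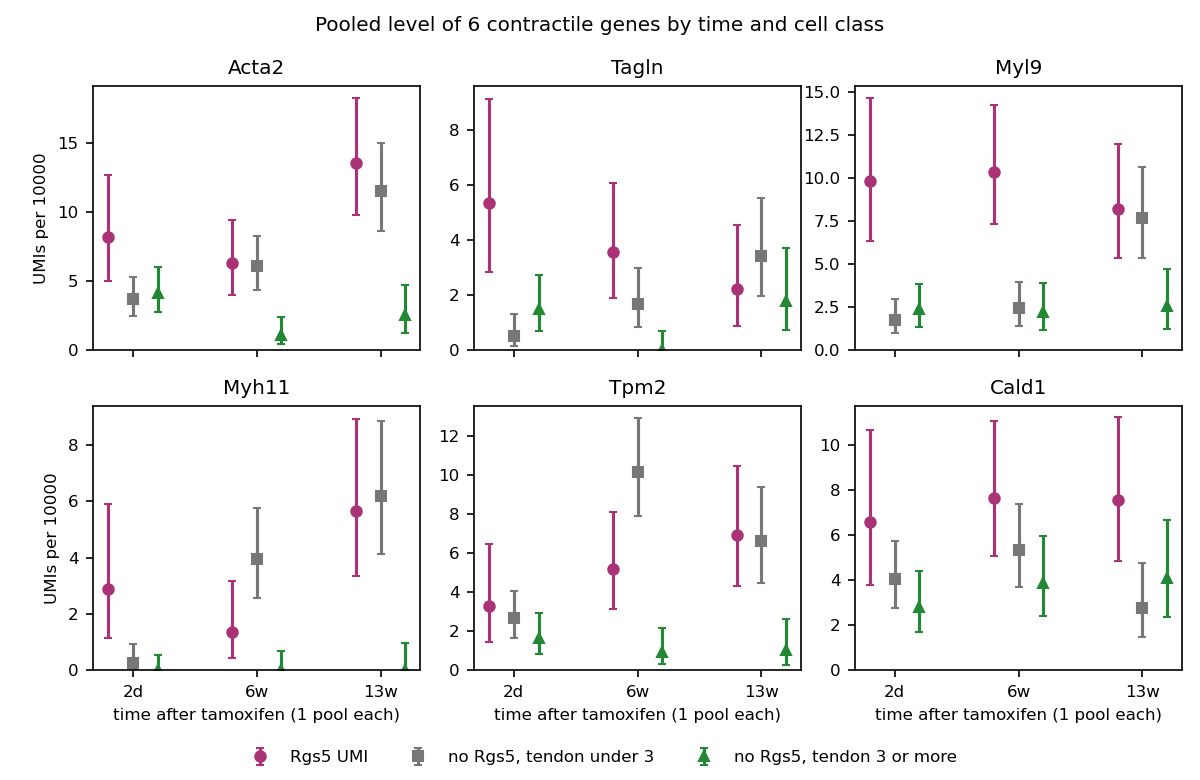
Levels (UMIs per 10000 UMIs of the class) of 6 contractile genes at each time point, in wells with an Rgs5 UMI, in wells without Rgs5 and with fewer than 3 tendon UMIs, and in wells without Rgs5 and with 3 or more tendon UMIs. Bars are 95% Poisson intervals, which cover counting error only. Myl9 is highest in Rgs5+ wells in each pool, and Myh11 lies at 0 in the tendon wells without Rgs5.

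Wells with tendon genes had less Acta2, Tpm2 and Myh11. Wells with 3 or more UMIs of Thbs4, Fmod and Tnmd together (187 wells; 70, 68 and 49 per pool), genes of tendon and fibrous matrix, were compared with the 316 other wells. Other genes of a tendon list, which the class did not use, were higher in these wells for 7 of 7 tested, Scx (the tendon transcription factor scleraxis) and Mkx among them. Of 3792 genes tested, 4.32% were lower and 4.11% higher, and 3 of the 6 contractile genes were lower and 0 higher. Of these 3, Myh11 is read from its counts below.

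Myh11 was nearly missing from tendon wells, with 0, 0 and 1 UMIs at 2 days, 6 weeks and 13 weeks against 9, 31 and 46 in the others. It reached the minimum of UMIs for a test through the other wells alone. Although edgeR called it lower, it is therefore given by its counts. The ratio of the summed levels was 0.0188 (0.000471 to 0.108), and the fitted log2 fold change of −5.22 ± 0.68 rests on that single UMI. The 174 tendon wells without Rgs5 had 0 Myh11 UMIs among 160950, which allows a level of up to 0.186 per 10000.

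Tpm2 was at 1.56, 0.888 and 1.84 in tendon wells and 2.88, 8.56 and 6.59 in the others, with no overlap (−1.86 ± 0.38, edgeR adjusted p = 0.0021). Acta2 was at 3.97, 1.07 and 3.45 in tendon wells and 4.87, 6.27 and 12.4 in the others (−1.30 ± 0.34, edgeR adjusted p = 0.017). All 3 tendon values lay below the other 3, but the size of the gap was uneven, with ratios of 0.816 (0.494 to 1.32), 0.17 (0.0601 to 0.391) and 0.279 (0.15 to 0.484). The 2-day interval included no difference. Tendon wells held 38.2% of all UMIs and 19.4% of those of Acta2, and they were the deeper wells (median 787 against 695.5 UMIs).

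Cald1 was close in both classes, at 2.98, 3.91 and 5.29 in tendon wells and 4.57, 6.17 and 4.03 in the others (−0.22 ± 0.30, edgeR adjusted p = 0.78). Myl9 (−0.92 ± 0.30, adjusted p = 0.065) and Tagln (−1.02 ± 0.48, adjusted p = 0.23) did not pass the edgeR test. Tagln had 0 UMIs in the 6-week tendon wells but 10 and 8 at 2 days and 13 weeks.

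The same 3 genes were lower when tendon wells were compared among wells without Rgs5 alone (Acta2 −1.25, edgeR adjusted p = 0.0093). Myh11 had no UMI in those tendon wells and is again read from its counts. Acta2 went the other way at 2 days there, at 4.13 (2.75 to 5.97) in tendon wells and 3.67 (2.46 to 5.27) in the others. It was at 1.11 against 6.07 at 6 weeks and 2.56 against 11.5 at 13 weeks. Over all pools 16.1% of these tendon wells and 17.1% of the others had an Acta2 UMI. Acta2 and Tpm2 depended on the 6-week pool, without which they were at −0.91 and −1.23 (edgeR adjusted p = 0.266 and 0.148). Without the 11 wells richest in Acta2, which were picked by the gene itself, Acta2 was at −0.69 (edgeR adjusted p = 0.208). The muscle fibre list moved with the class too, at 4.82, 3.73 and 4.37 UMIs per 10000 in tendon wells and 27.6, 39.9 and 44.0 in the others, and without the fibre wells Tpm2 was at −1.17 in place of −1.86 (edgeR adjusted p = 0.028) and Myl9 was also lower (−0.99, edgeR adjusted p = 0.028).

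Markers of other cells moved with the tendon class as well. The endothelial list was at 0.142, 0.533 and 1.84 UMIs per 10000 in tendon wells and 5.26, 14.6 and 23.3 in the others, with 6 of 6 genes tested lower. The pericyte list was at 8.51, 6.92 and 12.9 against 34.6, 46.9 and 52.2, with 6 of 13 lower. In the red blood cell list 4 of 4 genes were lower and in the satellite cell list 3 of 4, with Chodl higher. Of all genes tested, 4.32% were lower and 4.11% higher. The part of these cells in the contractile differences was not tested.

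The question of whether the other genes follow Acta2 was put by comparing the 107 wells with an Acta2 UMI (40, 29 and 38 per pool) with the 396 without. Tagln, Myl9 and Myh11 were higher in wells with Acta2. Of 3794 genes tested, 0.132% were higher (5 genes) and 0.0527% lower (2 genes), and 3 of the 5 contractile genes tested here were higher and 0 lower. Acta2 made the split and is left out, as is Cnn1.

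The Tagln level was 5.60, 6.83 and 5.19 in wells with Acta2 and 0.379, 0.238 and 1.26 in wells without (log2 fold change 3.34 ± 0.48, edgeR adjusted p = 0.0049). For Myl9 the values were 6.62, 12.7 and 13.0 against 2.12, 2.14 and 2.77 (2.09 ± 0.30, edgeR adjusted p = 0.0049). Neither gene had overlapping classes. Myh11 was at 1.02, 9.76 and 10.6 with Acta2 and at 0.379, 0.0794 and 0.757 without (3.88 ± 0.60, edgeR adjusted p = 0.0082). The 2-day Myh11 ratio of 2.69 rested on 4 against 5 UMIs and its interval (0.533 to 12.5) included no difference, whereas 30 of 31 UMIs at 6 weeks and 41 of 47 at 13 weeks were in wells with Acta2.

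Tpm2 and Cald1 pointed the same way without passing. Tpm2 was at 4.58, 10.7 and 10.6 with Acta2 and 1.67, 4.60 and 2.02 without (1.60 ± 0.33, edgeR adjusted p = 0.073). Cald1 was at 6.37, 8.78 and 8.04 against 3.18, 4.52 and 2.77 (1.10 ± 0.30, edgeR adjusted p = 0.24), with no overlap. Without the muscle fibre wells the Tpm2 level in wells lacking Acta2 went from 2.85 to 0.821 over all pools, and Tpm2 was higher with Acta2 by 3.24 (edgeR adjusted p = 0.00045).

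Outside the list, the genes higher with Acta2 were Sncg (γ synuclein, 3.32, edgeR adjusted p = 0.0082) and Gkn3, and those lower were Gsn (gelsolin, an actin-severing protein abundant in fibroblasts, −1.52, adjusted p = 0.042) and Myoc (myocilin, −2.08, adjusted p = 0.034). Gkn3, known as a marker of arterial endothelium, reached the minimum of 20 UMIs through the wells with Acta2 alone and is given by its counts. It had 0, 25 and 10 UMIs in the wells with Acta2 at 2 days, 6 weeks and 13 weeks and 0 among the 337233 UMIs of the wells without, which allows a level of up to 0.089 there. Its 35 UMIs were in 5 of the 107 wells, 20 of them in 1 well, and all 5 wells had an endothelial UMI. Gkn3 and Myoc were named after their values were seen. Sncg, Tagln and Myh11 had 8, 18 and 12 UMIs in the wells without Acta2, also under the minimum of 20. They were tested because of their UMIs in wells with Acta2, where they were then called higher, which limits these calls.

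Without the 11 wells richest in Acta2, edgeR called 0 of the 5 genes, and 4 were at an unadjusted p under 0.05. Tagln, Myl9 and Myh11 were then at 2.33, 1.47 and 2.49 (edgeR adjusted p = 0.109, 0.0756 and 0.0971). Those wells were picked by the gene that made the split, and they held 43.2% of the Tagln and 56.3% of the Myh11 UMIs. Leaving them out therefore lowers these ratios by construction, and nothing is read from the lost calls. With 2 pools only, leaving out 6 weeks or 13 weeks gave 0 calls as well, with all 5 genes at an unadjusted p under 0.05 each time. Wells with Acta2 were also deeper, with a median of 830 UMIs against 694. The pericyte list was at 44.0, 60.2 and 51.6 in wells with Acta2 and 17.8, 25.8 and 30.9 in wells without, with 0 of its 13 genes called, and the endothelial list at 4.58, 15.6 and 18.9 against 2.73, 8.09 and 13.6, with 0 of 6 called. Among Rgs5+ wells alone Tagln and Tpm2 (3.48, edgeR adjusted p = 0.0035) were higher with Acta2, and among wells without Rgs5 Tagln and Myh11 were (adjusted p = 0.027 and 0.0072).

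**Figure D3:**
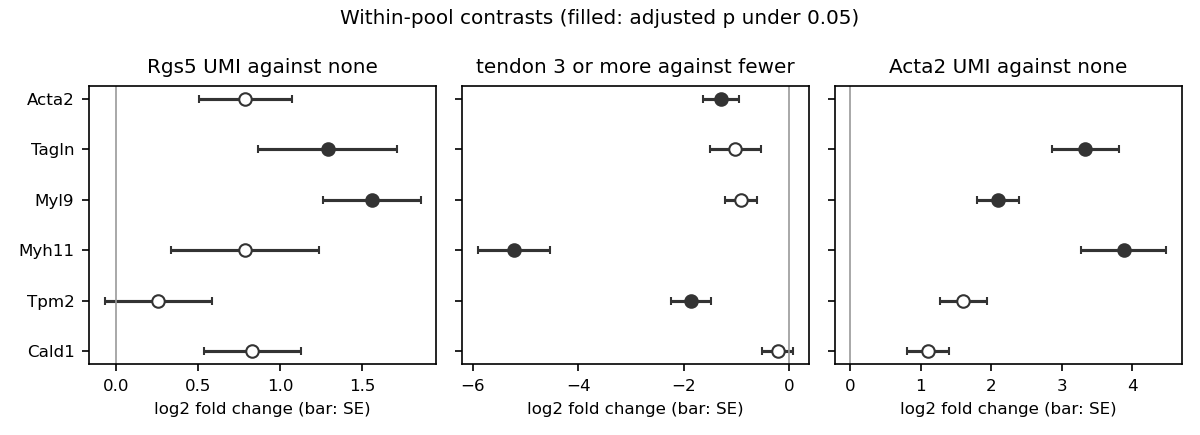
Log2 fold change (point) and SE (bar) of each contractile gene in 3 comparisons within pools, from edgeR fits of 6 sums of UMIs over 3 pools. Filled points have an adjusted p under 0.05, and Acta2 is left out where it made the split. Tagln and Myl9 are filled in the Rgs5 comparison, Acta2, Myh11 and Tpm2 in the tendon comparison, and Tagln, Myl9 and Myh11 in the Acta2 comparison. The Myh11 point of the tendon comparison rests on a single UMI in tendon wells.

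The other genes were most abundant in wells with 2 or more Acta2 UMIs. Summed, the other 6 genes over all pools were at 9.61 per 10000 (8.59 to 10.7) in wells with 0 Acta2 UMIs and at 12.8 (10.2 to 15.9) in wells with 1, and these intervals overlapped. They were at 54.7 (45.5 to 65.1) in wells with 2 to 4 UMIs and at 106 (92.8 to 121) in wells with 5 or more. In the 2-day pool the wells with 0 and with 1 were at 7.731 (6.304 to 9.385) and 15.5 (10.97 to 21.28), and these intervals did not overlap. The step between 1 and 2 to 4 UMIs was seen in each pool, where wells of the 2-day pool went from 15.5 to 36.5, those of the 6-week pool from 11.3 to 63.7 and those of the 13-week pool from 11.1 to 69.7. The richest wells reached 118 and 137 at 6 and 13 weeks but 42.9 in the 2 wells of the 2-day pool. No test was made on these steps, since wells are not replicates, and the richest wells were the deepest (median 2268 UMIs).

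**Figure D4:**
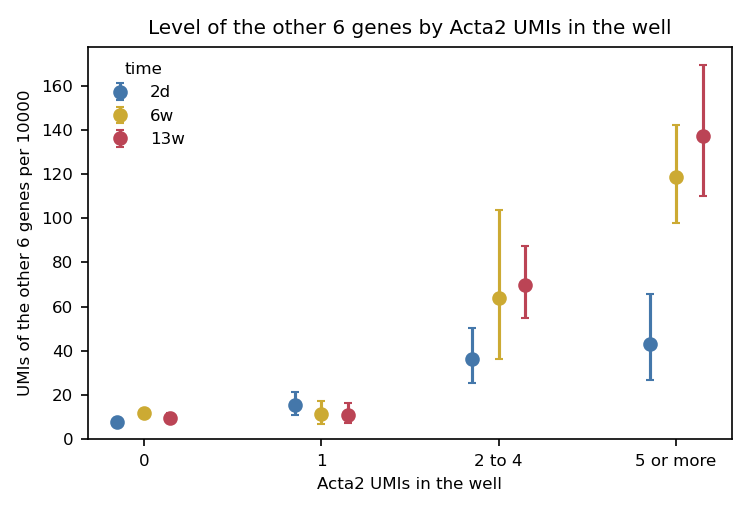
Summed level of Tagln, Myl9, Myh11, Tpm2, Cald1 and Cnn1 (UMIs per 10000) in wells grouped by their Acta2 UMIs, at each time point, with 95% Poisson intervals for counting error. Wells with 1 Acta2 UMI lie near those with 0 in the later pools. In the 2-day pool they lie above them, at 15.5 (10.97 to 21.28) against 7.731 (6.304 to 9.385). Wells with 2 or more lie above both in each pool.

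The genes were also counted by how many were seen in the same well. At least 3 of the other 6 genes were seen together in 26 of 107 wells with Acta2, 24.3% (16.5 to 33.5), and in 5 of 396 wells without, 1.26% (0.411 to 2.92). Among wells with 1 Acta2 UMI the share was 8.57% (3.21 to 17.7, 6 of 70). Among those with 2 or more UMIs it was 54.1% (20 of 37). Deeper wells show more genes, and wells with Acta2 had a median of 830 UMIs against 694 in wells without. With the other genes counted after thinning each well to 300 UMIs, a check added after seeing the data, the shares were 9.52% (4.66 to 16.8) with Acta2 and 0.265% (0.0067 to 1.47) without. For wells with 1 Acta2 UMI the thinned share was 2.899% (0.353 to 10.1), whose interval overlapped that of wells without Acta2, and for wells with 2 or more it was 22.2% (10.1 to 39.15). A single other gene was common without Acta2, since 180 of 396 such wells (45.5%) had at least 1.

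Pairs of genes were also compared by the correlation within pools of ln(1 + UMIs per 10000) over 181, 189 and 133 wells. The values of a well share its depth, and most are 0, so that the correlations are descriptions only. With Acta2, the mean r over the pools was 0.43 for Tagln, 0.34 for Myh11, 0.30 for Myl9, 0.28 for Tpm2 and 0.19 for Cald1. Myh11 had 0.08 at 2 days and 0.48 and 0.47 at 6 and 13 weeks, and Tagln 0.53, 0.46 and 0.31. Over 4702 genes with a UMI in 15 or more wells the median of this mean was 0.0012 and the 99th percentile 0.15.

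In the order of the 4702 genes Tagln was in place 1, Myh11 in 3, Myl9 in 5, Tpm2 in 7 and Cald1 in 22. The 10 genes outside the list closest to Acta2 were Aoc3 (0.36, an amine oxidase of vascular smooth muscle), Sncg (0.32), Gucy1a3 (0.30, a subunit of the nitric oxide receptor), the processed pseudogene Gm5526 (0.26), Rasgrp2 (0.24), Mylk (0.24, the kinase that phosphorylates Myl9), Mustn1 (0.23), Cnn2 (0.23, a calponin of non-muscle cells), Dmd (0.22, dystrophin) and Gadd45g (0.22). Aoc3 was seen in 15 wells only, at the minimum, and reads of a pseudogene cannot be told apart from those of its parent gene.

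Over time, the Acta2 level of all wells was 4.50 (3.55 to 5.62) in the 2-day pool, 4.40 (3.43 to 5.57) in the 6-week pool and 9.08 (7.44 to 10.97) in the 13-week pool. With 1 pool per time point there is no test, and the ratios below describe these pools. The 2-day and 6-week values were within each other's counting error (6 weeks over 2 days 0.979, 0.697 to 1.37), and the 13-week value was above both (13 weeks over 2 days 2.02, 1.49 to 2.74). The 13-week to 2-day ratio was 1.65 (0.948 to 2.95) in Rgs5+ wells and 1.92 (1.32 to 2.79) in the others. In tendon wells it was 0.869 (0.431 to 1.68).

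Of the 6 genes Myh11 differed the most between the pools, at 0.526, 1.98 and 3.99, a ratio of 3.76 (1.75 to 8.98) at 6 weeks and 7.59 (3.68 to 17.6) at 13 weeks over 2 days. It rested on 9 UMIs at 2 days and, at 6 weeks, on few wells, since without the 11 richest Acta2 wells the 6-week ratio was 0.251 and the 13-week ratio 4.48. The 13-week ratio was 1.97 in Rgs5+ wells and 24.8 in wells without Rgs5. In wells without Rgs5 there were 2, 26 and 29 Myh11 UMIs. Tpm2 was at 2.34, 5.81 and 4.84, with ratios of 2.48 (1.70 to 3.70) and 2.07 (1.36 to 3.18), and without the fibre wells 1.52 and 2.22. Myl9 was at 3.15, 4.21 and 6.11 (1.33 and 1.94), Tagln at 1.58, 1.53 and 2.55 (0.971 and 1.61) and Cald1 at 3.91, 5.36 and 4.50 (1.37 and 1.15), and the Tagln and Cald1 intervals included 1 in both comparisons. In Rgs5+ wells alone the 13-week to 2-day ratio was 0.83 (0.458 to 1.51) for Myl9 and 0.412 (0.139 to 1.11) for Tagln, and both intervals included 1.

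Among 3795 genes with 20 or more UMIs, 10.5% were 2-fold or more higher and 6.09% 2-fold or more lower at 6 weeks than at 2 days, and 9.75% and 10.4% at 13 weeks. Of the 6 contractile genes, 2 (Myh11 and Tpm2) were past 2-fold higher at 6 weeks and 3 (Acta2, Myh11 and Tpm2) at 13 weeks, and 0 were past 2-fold lower at either time. In Rgs5+ wells the sum of the other 6 genes stood at 27.9, 28.1 and 30.5, within counting error of each other, and in wells without Rgs5 at 8.79, 16.2 and 18.9. A few wells carried part of the latter difference, since without the wells with 5 or more Acta2 UMIs the values were 7.61, 11.01 and 12.4, and without the fibre wells 8.16, 12.3 and 18.3. The cell types sampled differed between pools as well, with the endothelial list at 3.15, 9.57 and 15.4 and the fibroblast list at 215, 202 and 122 UMIs per 10000, and the part of this in the time differences was not tested.

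To compare shares of cells across depths, each well was thinned to 300 UMIs, which left out 20 wells. An Acta2 UMI was then seen in 19 of 175 wells (10.9%, 6.67 to 16.4) at 2 days, 11 of 182 (6.04%, 3.06 to 10.6) at 6 weeks and 20 of 126 (15.9%, 9.97 to 23.4) at 13 weeks. The 3 intervals overlapped. Without thinning the shares were 22.1%, 15.3% and 28.6%.

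In Rgs5+ wells the thinned share was 21.2% (8.98 to 38.9), 4.44% (0.543 to 15.2) and 29.4% (15.1 to 47.5), against 8.45%, 6.57% and 10.9% in wells without Rgs5. The 6-week Rgs5+ share came from 2 of 45 wells in a single random draw of UMIs, and it went against the level, which was higher in Rgs5+ wells. Without thinning, the 6-week shares were 26.7% (12 of 45, 14.6 to 41.9) in Rgs5+ wells and 11.8% (17 of 144, 7.03 to 18.2) in the others, at median depths of 621 and 691 UMIs. The share expected over all possible draws, computed from the hypergeometric distribution after the data were seen, was 24.0%, 13.8% and 29.1% in Rgs5+ wells and 7.92%, 6.21% and 12.1% in the others, higher in Rgs5+ wells in each pool. As a background, wells with a UMI of 5 satellite cell genes had thinned shares of 5.66%, 3.70% and 7.32% (expected over draws 8.22%, 4.695% and 13.6%), and fibre wells 1 of 16 (6.25%). Neither is a clean reference, since a gene of the satellite list, Chodl, was higher in tendon wells. In that draw the 6-week intervals of the Rgs5+ and satellite wells overlapped, and without thinning the 6-week satellite wells were at 13.0% (5.37 to 24.9). Over all pools the share without thinning was 36.4% in Rgs5+ wells and 19.3% in the satellite wells, with median depths of 603 and 848.5 UMIs.

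**Figure D5:**
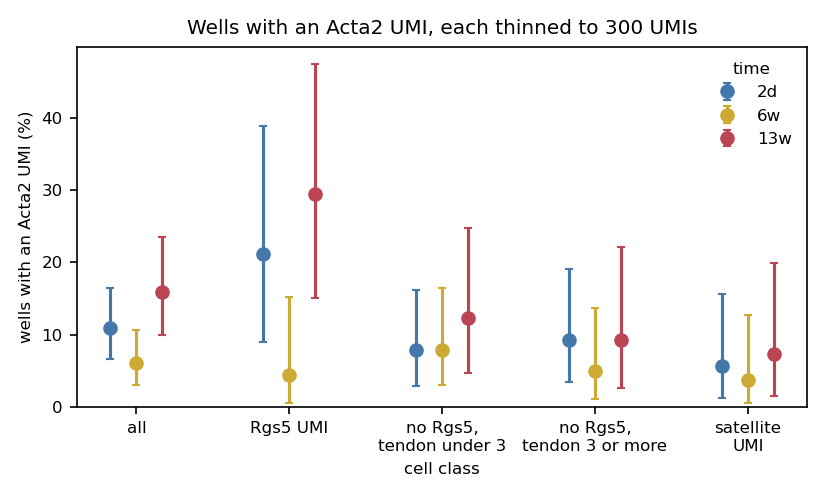
Share of wells with an Acta2 UMI (%) after each well was thinned to 300 UMIs, by cell class and time point, with 95% Clopper-Pearson intervals for counting error. The share in Rgs5+ wells is 21.2% at 2 days and 29.4% at 13 weeks and 4.44% at 6 weeks, where it lies among the other classes in this single random draw.

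Other genes of the apparatus were read from lists. Of 40 further contractile and cytoskeletal genes, 27 could be tested. The shares of all genes called were 3.06% higher and 3.93% lower in Rgs5+ wells, 4.11% higher and 4.32% lower in tendon wells, and 0.132% higher and 0.0527% lower with Acta2. In Rgs5+ wells 2 of the 27 were higher, Sncg (2.52) and Tns1 (tensin, 1.13), and 0 lower. In tendon wells 5 were lower, Des (the muscle intermediate filament desmin, −2.60), Sncg (−3.24), Filip1l (−2.34), Fhl1 (−2.17) and Mustn1 (−1.40), and 0 higher. With Acta2, 1 was higher (Sncg, 3.32) and 0 lower, and the median over the 27 was 0.80 against −0.08 over all genes. The list holds many genes with broad roles in adhesion and actin binding.

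Of 33 regulators of the smooth muscle program, 19 could be tested. Notch3, a receptor of vascular mural cells, was the 1 gene of 19 higher in Rgs5+ wells (2.5, edgeR adjusted p = 6.6e-06), a count near the 3.06% of all genes, and 0 were lower. In tendon wells Notch3 (−3.00) and the Notch target Hes1 (−1.74) were lower, 2 of 19 beside 4.32% of all genes, and 0 were higher. With Acta2, 0 of 19 were called in either direction.

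Of 33 genes for calcium, ion channels and nitric oxide signaling, 12 could be tested. In Rgs5+ wells 4 were higher and 0 lower, beside 3.06% and 3.93% of all genes. The 4 genes were Kcnj8 (4.48) and Abcc9 (4.79), which form a potassium channel of mural cells, and Gucy1a3 (3.87) and Gucy1b3 (2.89), which form the nitric oxide receptor. In tendon wells Kcnj8 (−2.37), Abcc9 (−3.88) and Gucy1a3 (−3.91) were among the genes that were lower, and 0 were higher. With Acta2, 0 of 12 were called. All 4 genes higher in Rgs5+ wells are also in the pericyte list, of which 10 of 12 tested were higher there.

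Non-muscle and striated relatives of the 7 genes were read in the same way. Of 11 non-muscle relatives tested, 0 were called in the Rgs5 or the Acta2 comparison, and in tendon wells Cnn3 was higher (1.30) and Tpm3 lower (−1.29), 1 of 11 each way beside 4.11% and 4.32% of all genes. Of 13 striated muscle relatives, 11 were lower in Rgs5+ wells and 11 in tendon wells, beside 3.93% and 4.32% of all genes, and 0 were called with Acta2. In the Acta2 comparison 1 of 10 fibroblast genes was lower (Gsn), beside 0.0527% of all genes. There, 0 of 10 tendon, 0 of 11 fibre and 0 of 4 satellite cell genes were called.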

How the data were processed

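Single αSMA-labeled cells were processed with Drop-seq in plates (2 plates). The submitters' processing notes name bcl2fastq 2.18.0.12, STAR 2.5.4a and Picard 2.9.3, and the methods name Drop-seq tools, the mm10 genome and another Picard version. The authors deposited counts per gene and well, as UMI counts and as read counts, without normalization, with a table assigning wells to pools. UMI counts were used. The 168 wells assigned to no pool were not used. Both plates use the same 384 well barcodes, so wells were identified by plate and barcode.

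Wells with 200 or more genes were kept. UMIs were summed per pool and class (6 sums) and fitted in edgeR 4.0.16 (R 4.3.3, quasi-likelihood F test, TMM, genes with 20 or more UMIs, pool as block), with Benjamini-Hochberg adjustment over all genes and a threshold of 0.05. A pool holds 2 to 3 mice. With pool as block, the p-values set the class difference against its variation over 3 pools, which also differ in time point. Pool supplies the pairing, since both classes of a pair come from the same mice and plate. Time points had 1 pool each and no test. Levels have Poisson and shares Clopper-Pearson intervals at 95%, and ratios of levels exact conditional intervals; a count of 0 allows up to 3 counts. Shares were taken after thinning (seed 0). Scrublet (scanpy 1.11.5) marked 12 wells, and no wells were removed as doublets.

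Named genes were the 7 contractile genes, list members as counts with examples, and the 10 other genes closest to Acta2. The value of 1 list member is left out. The genes, classes and lists (contractile, regulators, calcium, non-muscle and striated relatives, and markers of pericytes, endothelium, muscle fibre, satellite cells, tendon and fibroblasts) were chosen with earlier results of these data known. Alternatives varied the gene minimum, scaling, filter, tool (DESeq2 1.42.0), block, counts, class limits, wells left out and pools left out. The fits were tested on simulated counts.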

Additional observations from a re-analysis of the deposited data

Results flagged for a closer look

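Differences between pools in direction, none of which was tested, touched 4 genes. The level of Tagln in Rgs5+ wells over the other wells was 5.60, 3.87 and 0.823 in the 2-day, 6-week and 13-week pools. For Myh11 the same ratio was 21.1, 0.630 and 1.68, and its counts in Rgs5+ wells were 7, 5 and 18 UMIs. For Tpm2 it was 1.51, 0.865 and 1.70, and without muscle fibre wells 2.28, 2.72 and 2.33. For Cald1 the ratio of tendon wells over the other wells was 0.652, 0.633 and 1.31, and all 3 intervals included 1.

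Wells under 200 genes, which were left out of the wells used, held Tpm2. In these 97 wells it had 42 UMIs in 19 wells, a level of 25.2 per 10000 (18.1 to 34.0), against 4.22 in the wells used. The muscle fibre list was at 307 per 10000 there and at 24.2 in the wells used. Acta2 in the same 97 wells was at 4.79 (2.07 to 9.45), within counting error of its 5.67 in the wells used.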

How the results depend on the processing

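Calls of single contractile genes depended on the processing more than their direction did. Of the 6 genes tested in the Rgs5 comparison (2 called), 1 was called with a minimum of 100 or of 300 genes, with DESeq2, without a filter on low counts, with classes set after thinning, or against wells outside the tendon class. There were 4 calls with library totals only, with filterByExpr, without the Scrublet marks or without the wells with 5 or more Acta2 UMIs (where the choice of wells itself raises the Myh11 and Tagln ratios). There were 0 with read counts (1 at an unadjusted p under 0.05) and without wells with an endothelial UMI (3), and leaving out a pool gave 1 to 2. In the tendon comparison (3 called) 1 was called with DESeq2 and with read counts and 0 with a limit of 1 tendon UMI (2 at an unadjusted p under 0.05), and leaving out a pool gave 1 to 3. In the Acta2 comparison (3 called) 1 was called with read counts, and leaving out a pool gave 0 to 3. There were 0 calls without the wells with 5 or more Acta2 UMIs, which were picked by the gene that made the split. Without the replicate block the counts were 1 for Rgs5, 2 for tendon and 2 for Acta2. Tagln, Acta2 and Myh11, in that order, were the genes lost. Over all genes, calls in the Rgs5 comparison went from 116 higher and 149 lower to 11 and 48 without endothelial wells, and those in the tendon comparison from 156 and 164 to 58 and 20 with a limit of 1 tendon UMI. Library totals moved the median of all genes in the Rgs5 comparison from −0.16 to −0.03.

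The direction turned for Tpm2 in the Rgs5 comparison, to −0.145 without a filter, −0.065 without the deepest 5% of wells, −0.068 with classes set after thinning, −0.076 without the wells with 5 or more Acta2 UMIs and −0.28 against wells outside the tendon class. Cald1 in the tendon comparison went to 0.003 without those Acta2 wells and 0.093 with a limit of 1 tendon UMI. The 13-week to 2-day ratio of Myl9 was 0.83 and that of Tagln 0.412 in Rgs5+ wells, that of Myh11 (7.59 over all wells) was 1.97 in Rgs5+ wells and 24.8 in wells without Rgs5, and the 6-week to 2-day ratio of Myh11 was 0.609 without the deepest 5% of wells, 1 as a mean over wells, 0.475 in Rgs5+ wells and 0.251 without the wells with 5 or more Acta2 UMIs. The 13-week to 2-day ratio of Acta2 was 1.47 with read counts and 2.81 without the deepest 5% of wells. The 13-week share of wells with Acta2 was 28.6% without thinning and 5.56% for 2 or more UMIs. Of the 10 genes closest to Acta2, 5 remained with a minimum of 30 wells and 4 after thinning. The causes were not tested. Each time point is 1 pool, and a few UMIs per well limit what can be seen of any gene.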

Other observations

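The other actins were read beside Acta2. Actg2, the actin of visceral smooth muscle, had 5 UMIs, all in wells with an Acta2 UMI. Actc1, the cardiac actin, also had 5 UMIs in such wells, 4 of them in 1 muscle fibre well, and all came from the 13-week pool. Acta1, the skeletal muscle actin, had 277 UMIs, of which 223 were in the 19 fibre wells, and its level was 2.30 per 10000 in wells with Acta2 and 7.47 in wells without. The cytoplasmic actin Actb was at 22.6 with Acta2 and 16.6 without, and did not pass the edgeR test, as 0 of the 11 non-muscle relatives tested did. Actg1 was at 0.553 and 1.01.

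Some wells held several contractile genes without Acta2. Of 396 wells without an Acta2 UMI, 47 had at least 2 of the other 6 genes and 5 had at least 3. Tagln had 18 of its 81 UMIs in wells without Acta2, Myh11 12 of 87, and Cald1 121 of 204.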
